A study of Mus musculus with 6 samples.

Results

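The cytosolic heat shock proteins are the chaperones, co-chaperones and controlling factor that keep proteins folded in the cytosol. The group described here has 10 genes: Hspa1a, Hspa1b, Hspa8, Hsph1, Bag3, Dnajb1, Hsp90aa1, Hsp90ab1, Hspb1 and Hsf1. They were chosen by symbol, with earlier results of these data known. Each matched 1 Ensembl gene among the 31227 rows of a table of gene counts. RNA-seq was performed on 6 libraries of mouse intestinal organoids, small cultures of gut epithelium grown in medium with EGF, Noggin and R-spondin1, which all groups received. The 3 groups, with 2 libraries each, were wild type without added TGF-β (labelled WT), Smad4-deficient without added TGF-β (Smad4 KO) and Smad4-deficient given 0.5 nM TGF-β (Smad4 KO+TGFb, written here as Smad4 KO with TGF-β). The time given for every sample is 48 h, but the treatment text may mean that TGF-β was kept on for a further period after it. The labels give neither strain, sex nor age, nor the allele or Cre that removed Smad4, nor whether replicates came from separate animals or cultures. The p-values therefore measure only the spread between these libraries, which may be technical. No wild-type group with TGF-β was analysed here.

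Hsp70 proteins bind exposed hydrophobic stretches of unfolded chains and release them in a cycle driven by ATP. J-domain proteins deliver substrates and trigger hydrolysis, and nucleotide exchange factors reopen the chaperone. Hsp90 acts later, on nearly folded clients such as kinases and nuclear receptors, and small heat shock proteins hold denatured chains without ATP. The transcription factor HSF1 binds heat shock elements, inverted repeats of GAA, and drives the inducible members when unfolded protein accumulates. Hspa8 and Hsp90ab1 are the largely constitutive counterparts of the inducible Hspa1a, Hspa1b and Hsp90aa1. In the gut, heat shock proteins of the epithelium are known for protection against injury and inflammation.

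Promoter sequences are shown first, for the inducible Hsp70 pair and 3 other members with a heat shock element. RefSeq promoter windows on GRCm38.p6, which run from 250 bases before to 50 after each gene start, matched 6 of the 10 genes. Hspa8, Hsp90aa1, Hsp90ab1 and Hsf1 had no window. Each window was searched on both strands for the heat shock element, spelled GAANNTTC or TTCNNGAA, and for the CCAAT and TATAAA boxes. Hspa1a and Hspa1b lie side by side on the minus strand of chromosome 17. The 250 bases before their starts (chr17:34972157-34972406 and chr17:34959239-34959488) were identical at 247 positions and are printed 5′ to 3′ with the heat shock element in capitals.
Hspa1a: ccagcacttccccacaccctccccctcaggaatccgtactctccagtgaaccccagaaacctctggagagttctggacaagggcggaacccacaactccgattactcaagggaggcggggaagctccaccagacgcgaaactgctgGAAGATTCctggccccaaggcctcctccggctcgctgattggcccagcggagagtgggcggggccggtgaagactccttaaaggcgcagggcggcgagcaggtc
Hspa1b: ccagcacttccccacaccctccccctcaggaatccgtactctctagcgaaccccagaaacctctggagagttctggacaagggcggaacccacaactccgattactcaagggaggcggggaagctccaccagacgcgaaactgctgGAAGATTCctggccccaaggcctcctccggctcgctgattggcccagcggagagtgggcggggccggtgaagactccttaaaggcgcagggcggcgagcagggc

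Short stretches around the matches in 3 other members are shown for comparison, again with the elements in capitals. Hspb1 held a pair of elements before its start (chr5:135887791-135887840, plus strand). Hsph1 had one just before its RefSeq start (chr5:149636351-149636380, minus strand), though inside the Ensembl gene bounds given below. Bag3 had one at the end of its window (chr7:128523614-128523632, plus strand).
Hspb1: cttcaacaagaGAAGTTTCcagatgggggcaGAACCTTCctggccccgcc
Hsph1: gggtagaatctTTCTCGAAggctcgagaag
Bag3: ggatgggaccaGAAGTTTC

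At least 1 heat shock element was found in 5 of the 6 members with a window, the exception being Dnajb1, against 17% of all 27025 genes with such windows (15.1% of 32851 windows). In Hspa1a and Hspa1b it began 104 bases before the start, with a CCAAT box between it and the start. The matches in Hspb1 began 117 and 97 bases before the start. Hsph1 had 2 windows with different RefSeq starts. Its first match began 33 bases before one start and 54 before the other, and an overlapping pair lay after both. A CCAAT box was present in 4 of the 6, against 41.1% of all genes, a TATAAA box in 0 of the 6, against 15.7%, and no heat shock element overlapped a CCAAT box. These are letter matches only, and binding of HSF1 was not measured.

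**Figure D1:**
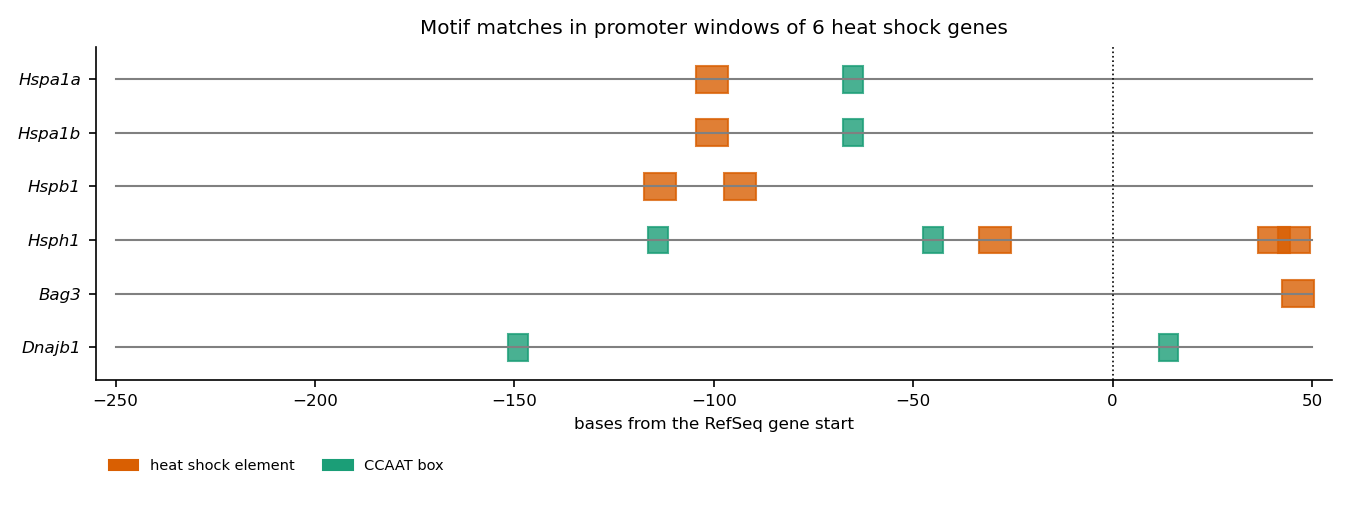
Motif matches in the promoter windows of the 6 members that have one (first window of each gene). The horizontal axis gives bases from the RefSeq start, orange boxes are heat shock elements and green boxes CCAAT boxes. Hspa1a and Hspa1b share the same arrangement, and no match to either spelling of the heat shock element was found for Dnajb1. Elements of other spelling or outside the windows were not searched.

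The 6 libraries held between 40549534 and 50699356 deposited count units. Smad4, the targeted gene, stood at 99.4 and 109.5 CPM (counts scaled to library size) in WT and between 21.7 and 29.5 CPM in the other 4 libraries, in the direction of the labels. All 10 markers of intestinal epithelium were detected in every library, with a summed level of 8078.7 to 8189.1 CPM in WT, of 11271.8 to 11404.4 CPM without Smad4 and of 15303.0 to 15426.9 CPM with TGF-β added. Krt8 (2213.5, 3486.0 and 5132.4 CPM) and Krt19 (1106.0, 2087.0 and 3501.0 CPM) made up most of that difference. Cdx2 was not called in any comparison, and Cdx1 and Krt20 were lower with TGF-β than in Smad4 KO. Of 7 leukocyte markers, Ptprc and Cd3e did not exceed 0.116 CPM in any library. The summed level of the 7 ran from 14.6 to 17.0 CPM in WT, from 22.5 to 22.8 in Smad4 KO and from 30.3 to 31.4 with TGF-β, most of it from Cd14. Cd14 was 1.83-fold higher in Smad4 KO than in WT, and 1.44-fold higher with TGF-β than without. The 6 fibroblast markers summed to at most 0.479 CPM and the 5 endothelial markers to at most 2.01 CPM. The mitochondrial share was 4.57% to 4.70% without TGF-β and 3.87% to 3.92% with it. The part of these shifts in the results below was not tested.

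Levels differed widely among the members. They are compared here per kilobase of exon as TPM (transcripts scaled for length and library size, mean ± SD of 2 libraries). The length is that of all annotated exons merged, 7266 bases for Hsph1, 7099 for Hsf1 and 4301 for Hspa8, against 2562 for Bag3. A merged length can exceed that of the main transcript and so lower the TPM. Ranks and percentages between members, here and below, depend on this choice. In WT, Hsp90ab1 stood at 2622.1 ± 5.2 TPM, Hspa8 at 601.8 ± 2.7 and Hsp90aa1 at 413.9 ± 72. A middle tier followed, with Bag3 at 46.6 ± 2.9, Dnajb1 at 39.6 ± 2.1 and Hsph1 at 33.4 ± 1.3 TPM. Hsf1 (13.0 ± 2.6), Hspa1b (8.81 ± 0.55) and Hspa1a (3.65 ± 0.56) were lower, and Hspb1 was listed at 0. With TGF-β, Hsp90ab1 (2481.9 ± 69 TPM), Hspa8 (942.5 ± 68) and Hsp90aa1 (285.6 ± 9) kept their ranks. Below them Bag3 stood at 120.4 ± 7 and Hspa1b at 105.8 ± 3.3 TPM, above Hsph1 at 48.4 ± 0.077 and Dnajb1 at 46.3 ± 5.4, which overlapped each other. Hspa1a was then at 36.8 ± 0.39 TPM, Hsf1 at 13.9 ± 2.8 and Hspb1 at 6.54 ± 0.76. In Smad4 KO the order was intermediate, with Hspa1b (39.6 ± 0.42 TPM) and Dnajb1 (42.2 ± 3) apart by less than the SD of Dnajb1, and Hspa1a (15 ± 3.9) overlapping Hsf1 (12.1 ± 0.62).

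The clearest pattern was a stepwise gain of the inducible Hsp70 genes and of BAG3, their exchange factor, from WT through Smad4 KO to Smad4 KO with TGF-β, while Hsf1 itself and the J-domain gene Dnajb1 were not called in any comparison. Hspa8 was higher in both Smad4 KO groups than in WT, and Hsph1 was higher with TGF-β than in either other group. Both cytosolic Hsp90 genes were called lower with TGF-β than in WT. The fall of Hsp90ab1 was small (1.10-fold, and -0.01 on the log2 scale against common reference genes). The call of Hsp90aa1 was lost when some single libraries were left out. Of the 10 members, 5 rose and 1 fell in Smad4 KO against WT, where 16.9% of the 15503 genes tested rose and 13.4% fell. For TGF-β against Smad4 KO, 4 rose and 0 fell, where 7.78% of all genes rose and 8.48% fell (edgeR; 6 rose and 0 fell at an unadjusted p under 0.05, and 5 and 0 in DESeq2). With TGF-β against WT, 6 rose and 2 fell, where 20.7% rose and 19.0% fell. Median log2 fold changes of the members were 0.30, 0.28 and 0.54 in this order, beside -0.02, -0.01 and -0.02 over all genes tested. All 10 passed the filter on low counts, but Hspb1, at 0 in WT, passed only through the groups where it was detected. Without it, 4, 4 and 5 of 9 rose, and the median log2 fold changes were 0.14, 0.14 and 0.48. The comparisons share groups, so their counts are not independent of each other. Hspa1a and Hspa1b are counted as 2 genes that rose in every comparison. Of the 50-base words of Hspa1a 58.8% also occur in Hspa1b, so both may rest partly on the same reads. The members were chosen with earlier results of these data known, so the counts beside the shares of all genes are a description only. In bulk RNA, fewer cells of a type and less RNA per cell cannot be told apart.

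**Figure D2:**
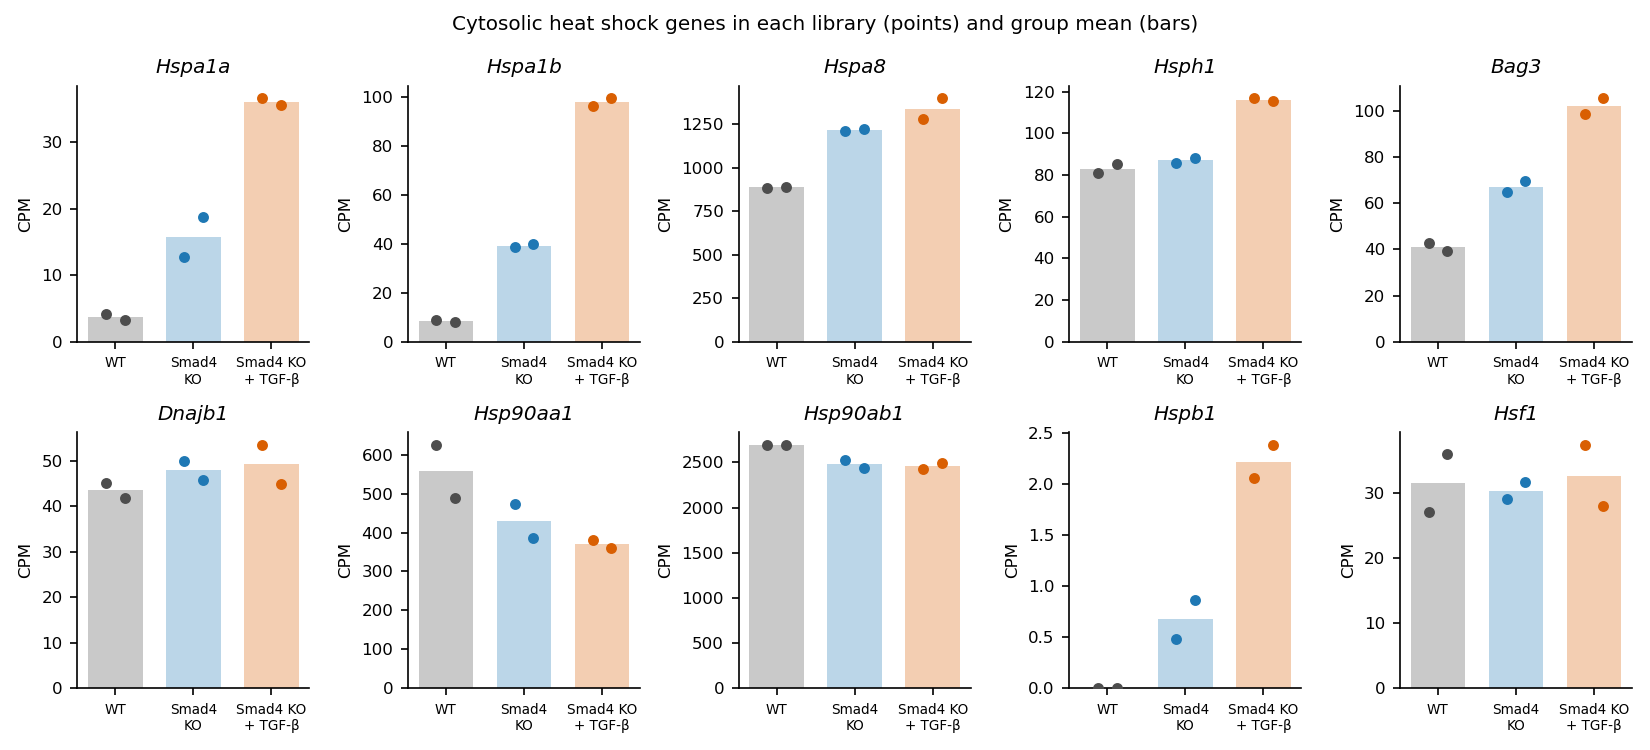
Level of each member in CPM. Points are the 6 libraries, bars the group means, and every axis starts at 0. Hspa1a, Hspa1b, Hspa8, Hsph1, Bag3 and Hspb1 step upward over the 3 groups with no overlap between groups, and Hsp90aa1 steps downward. The treated libraries of Dnajb1 and Hsf1 overlap both other groups. How many of all genes show no overlap between groups of 2 libraries was not counted.

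Hspa1b (ENSMUSG00000090877, chr17:34956436-34959238, minus strand, a single exon, GRCm38) encodes a stress-inducible Hsp70. It stood at 8.82 and 8.10 CPM in WT, at 38.7 and 39.8 CPM in Smad4 KO and at 96.5 and 99.5 CPM with TGF-β. The replicates lay close together and the 3 groups were far apart. It was 4.64-fold higher in Smad4 KO than in WT (2.21 ± 0.08 SE as log2 fold change, 2 libraries per group, edgeR adjusted p = 8.5e-06) and 2.50-fold higher again with TGF-β (1.32 ± 0.07, adjusted p = 0.00013). Over both steps it was 11.6-fold higher than in WT (3.53 ± 0.08, adjusted p = 1.3e-06).

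Hspa1a (ENSMUSG00000091971, chr17:34969190-34972156, minus strand), the neighbouring copy, stood at 4.11 and 3.31 CPM in WT, at 12.8 and 18.7 CPM in Smad4 KO and at 36.6 and 35.6 CPM with TGF-β. Its groups did not overlap either, though the Smad4 KO libraries differed from each other more than those of Hspa1b. It was 4.23-fold higher in Smad4 KO than in WT (a log2 change of 2.08 ± 0.21 SE, edgeR adjusted p = 0.00074) and 2.30-fold higher with TGF-β than without (1.20 ± 0.20, adjusted p = 0.0094). The second call was lost without TGF-β-treated replicate 1 (log2 fold change 1.18, adjusted p = 0.0521).

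The 2 copies are hard to separate by reads. Of the distinct 50-base words in Hspa1a transcripts, 58.8% also occur in those of Hspa1b, and how reads shared by both were divided is not given in the sources used here. Their rows were therefore also summed before the fit. The sum had log2 fold changes of 2.17 ± 0.10 SE in Smad4 KO against WT (edgeR adjusted p = 2.09e-05), 1.29 ± 0.09 with TGF-β against Smad4 KO (0.000317) and 3.46 ± 0.10 with TGF-β against WT (2.95e-06). Per kilobase, Hspa1a stood at 31.1% to 44.4% of Hspa1b over the 6 libraries, and the 3 groups overlapped in this ratio. Exons of Gm20481 on the opposite strand overlap 19% of those of Hspa1a, and Gm20481 is listed at 0 in every library. Hspa1l, a testis-enriched Hsp70 from the same cluster, ranged from 0.743 to 3.95 CPM, and replicates within a group differed by as much as the groups.

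Hspa8 (ENSMUSG00000015656, chr9:40800984-40810087, plus strand) encodes the constitutive Hsc70, which serves folding, clathrin uncoating and chaperone-mediated autophagy. It stood at 883.5 and 891.1 CPM in WT, at 1213.2 and 1223.6 in Smad4 KO and at 1280.1 and 1398.8 with TGF-β. Smad4 KO libraries were all above WT and below the treated ones. The rise against WT was 1.37-fold in Smad4 KO (log2 fold change 0.46 ± 0.04 SE, edgeR adjusted p = 0.00042) and 1.51-fold with TGF-β (0.59 ± 0.04, adjusted p = 8.7e-05). Between the Smad4 KO groups the log2 fold change was 0.14 ± 0.04 (edgeR adjusted p = 0.072, DESeq2 adjusted p = 0.0224), and it passed in edgeR without treated replicate 1 (0.20, adjusted p = 0.00914).

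The make-up of the Hsp70 pool differed between groups. Summed per kilobase, Hspa1a and Hspa1b amounted to 2.21% and 1.93% of Hspa8 in the WT libraries, 6.42% and 7.21% in Smad4 KO and 15.7% and 14.6% with TGF-β. The ratio did not overlap between groups. Even in the treated libraries the constitutive gene remained the main Hsp70 transcript of these 3.

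Bag3 (ENSMUSG00000030847, chr7:128523616-128546981, plus strand) encodes an exchange factor that links Hsp70 to small heat shock proteins and to selective autophagy, and also carries a WW domain. It stood at 42.6 and 39.2 CPM in WT, at 64.8 and 69.5 in Smad4 KO and at 98.4 and 105.4 with TGF-β. Each step separated the groups fully. It was 1.64-fold higher in Smad4 KO than in WT (a log2 change of 0.71 ± 0.08 SE, edgeR adjusted p = 0.00094), 1.52-fold higher with TGF-β than without (0.60 ± 0.08, adjusted p = 0.0033) and 2.49-fold higher with TGF-β than in WT (1.32 ± 0.08, adjusted p = 4.7e-05).

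Hsph1 (ENSMUSG00000029657, chr5:149614287-149636376, minus strand) encodes Hsp110, an exchange factor that works with Hsp70 in pulling apart aggregates. It stood at 80.8 and 85.5 CPM in WT, at 86.0 and 88.2 in Smad4 KO and at 116.9 and 115.6 with TGF-β. WT and Smad4 KO lay within a few CPM of each other, and the treated libraries lay above both. The difference between Smad4 KO and WT was not called (log2 fold change 0.07 ± 0.06 SE, edgeR adjusted p = 0.42). With TGF-β, Hsph1 was 1.34-fold higher than in Smad4 KO (0.42 ± 0.06, adjusted p = 0.0040) and 1.40-fold higher than in WT (0.48 ± 0.06, adjusted p = 0.00083).

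Dnajb1 (ENSMUSG00000005483, chr8:83608193-83612653, plus strand) encodes Hsp40, a heat-inducible J-domain partner of Hsp70. It stood at 45.1 and 41.9 CPM in WT, at 50.0 and 45.8 in Smad4 KO and at 53.5 and 44.8 with TGF-β. The treated libraries spanned the range of the Smad4 KO libraries and overlapped WT. Log2 fold changes were 0.14 ± 0.11 SE, 0.04 ± 0.11 and 0.17 ± 0.11 for Smad4 KO against WT, TGF-β against Smad4 KO and TGF-β against WT (edgeR adjusted p = 0.38, 0.88 and 0.25).

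Hsf1 (ENSMUSG00000022556, chr15:76477422-76501913, plus strand), the gene of the heat shock factor, stood at 27.1 and 36.0 CPM in WT, at 29.1 and 31.7 in Smad4 KO and at 37.5 and 28.0 with TGF-β. Replicates differed by more than the group means. Log2 fold changes were -0.05 ± 0.19 SE, 0.11 ± 0.19 and 0.05 ± 0.18 in the same order (edgeR adjusted p = 0.87, 0.77 and 0.85). HSF1 is controlled largely by release from chaperones, trimer formation and phosphorylation, which RNA levels do not show.

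**Figure D3:**
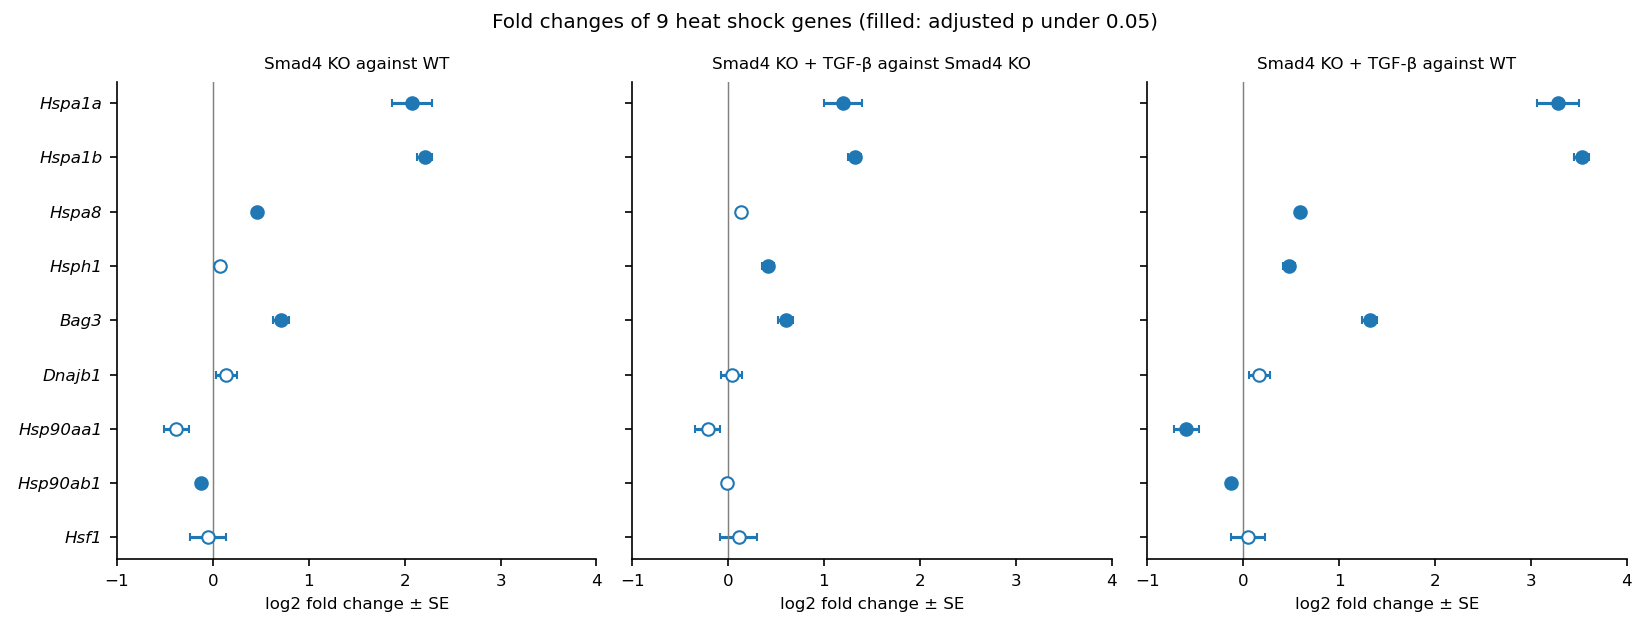
Log2 fold change ± SE of 9 members in the 3 comparisons from the edgeR fit with 2 libraries per group. Filled points passed an adjusted p under 0.05. Hspb1 is left out because it is at 0 in WT. Hspa1a, Hspa1b and Bag3 lie to the right of 0 in every panel, and the Hsp90 genes lie at or to the left of it.

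Hsp90ab1 (ENSMUSG00000023944, chr17:45567775-45573271, minus strand), the constitutive isoform and the most abundant member, stood at 2696.4 and 2695.1 CPM in WT, at 2528.2 and 2434.9 in Smad4 KO and at 2427.9 and 2491.8 with TGF-β. Both Smad4 KO groups lay below WT and overlapped each other. The fall was small, 1.09-fold in Smad4 KO (log2 fold change -0.12 ± 0.02 SE, edgeR adjusted p = 0.0088) and 1.10-fold with TGF-β (-0.13 ± 0.02, adjusted p = 0.0043). The first call was lost without WT replicate 1 (adjusted p = 0.0534). Measured against the median of 10 common reference genes in place of the scaling over all genes, the same differences were -0.27 and -0.01. The reference genes were not stable themselves. In Smad4 KO against WT 3 were called higher and 2 lower, and with TGF-β against WT 2 and 4. Between the Smad4 KO groups the log2 fold change was -0.01 ± 0.02 (adjusted p = 0.78).

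Hsp90aa1 (ENSMUSG00000021270, chr12:110690605-110702728, minus strand), the inducible isoform, stood at 625.6 and 489.9 CPM in WT, at 473.5 and 386.4 in Smad4 KO and at 381.9 and 360.5 with TGF-β. The groups were in descending order without overlap, but replicates in WT and Smad4 KO were well apart. It was 1.5-fold lower with TGF-β than in WT (a log2 change of -0.59 ± 0.13 SE, edgeR adjusted p = 0.014). That call was lost without WT replicate 1 (-0.40, adjusted p = 0.0603), treated replicate 1 (-0.62, adjusted p = 0.0524) or treated replicate 2 (-0.55, adjusted p = 0.0749). In Smad4 KO against WT the log2 fold change was -0.38 ± 0.13 (adjusted p = 0.081), and it passed without WT replicate 2 (-0.54, adjusted p = 0.03), with upper quartile scaling (-0.44, adjusted p = 0.0458) and without the filter on low counts (-0.37, adjusted p = 0.0498). With TGF-β against Smad4 KO it was -0.21 ± 0.13 (adjusted p = 0.36). Per kilobase, Hsp90aa1 was 17.7% and 13.9% of Hsp90ab1 in WT, 14.3% and 12.1% in Smad4 KO and 12% and 11% with TGF-β, with WT and Smad4 KO overlapping.

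**Figure D4:**
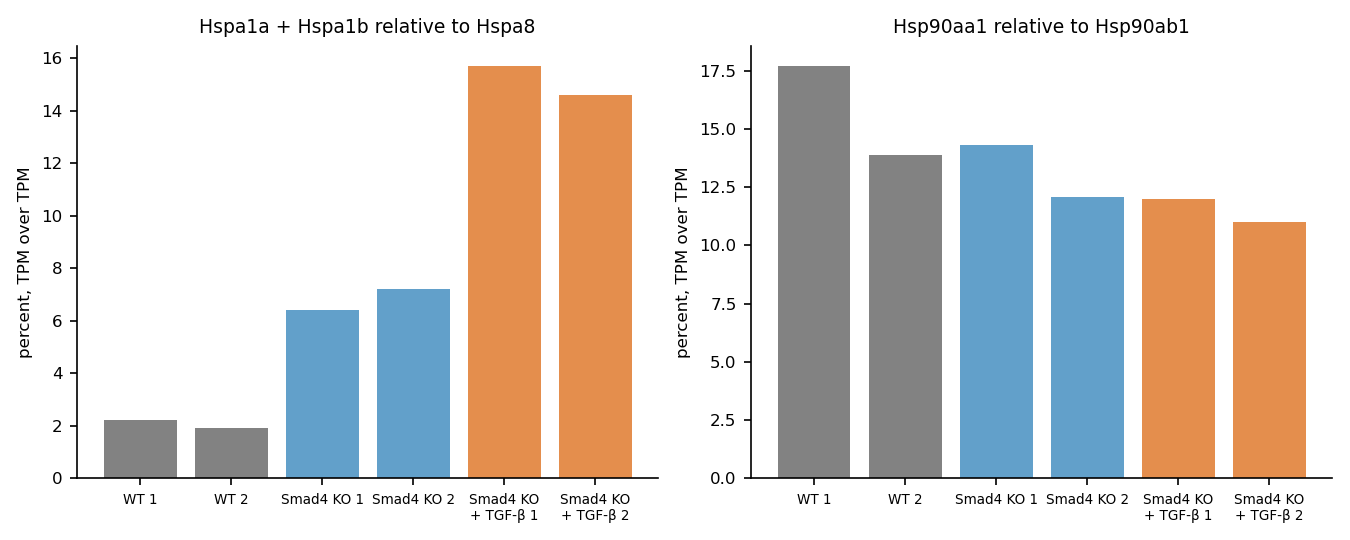
Level of the inducible genes as a percentage of their constitutive counterpart in each library, from TPM, with both axes starting at 0. The left panel sets Hspa1a plus Hspa1b against Hspa8 and rises from 1.93% in a WT library to 15.7% in a treated one. The right panel sets Hsp90aa1 against Hsp90ab1 and runs from 17.7% down to 11%.

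The summed share of the members varied little. The 10 genes together took 0.456% and 0.443% of all units in WT, 0.436% and 0.419% in Smad4 KO and 0.452% and 0.470% with TGF-β. Treated libraries overlapped WT in this share. The 3 Hsp70 genes together, per kilobase, were 19.8% and 20.6% of the 2 Hsp90 genes in WT, 31.2% and 33.5% in Smad4 KO and 38.0% and 40.4% with TGF-β, with no overlap between groups.

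Hspb1 (ENSMUSG00000004951, chr5:135887919-135889563, plus strand) encodes Hsp25, a small heat shock protein that binds actin and denatured proteins. It was listed at 0 in both WT libraries, stood at 0.484 and 0.867 CPM in Smad4 KO and at 2.06 and 2.39 CPM with TGF-β. These levels rest on few reads. With each fragment taken to add about 4 units, the Smad4 KO libraries held 13.5 fragments in all and the treated ones 48.5. Against a floor of 3 fragments over the WT group, the observed level of Hspb1 was 5.43-fold higher in Smad4 KO (edgeR adjusted p = 0.0041). It was 17.9-fold higher with TGF-β (adjusted p = 0.0012). Treated libraries were 3.29-fold above untreated Smad4 KO, which was not called (log2 fold change 1.72 ± 0.55 SE, adjusted p = 0.11). The floor covers counting error in WT only, and the error of the few fragments in the other groups is not included. Hspb1 passed the filter on low counts only through the groups where it was detected, so its p-values against WT are not independent support. Its values of 19, 35, 89 and 105 units are not multiples of 4, so the fragment numbers and the floor are approximate.

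Genes with the pattern most like that of Hspa1b were sought among the 10706 tested genes whose mean reached 5 CPM, by Pearson correlation of log2 CPM over the 6 libraries. The libraries fall into 3 groups, so many genes that step upward reach high values, and 178 had a correlation of at least 0.99. The 5 highest were Capg (0.9998), an actin filament capping protein, Capn1 (0.9996), a calcium-dependent protease, St3gal4 (0.9993), a sialyltransferase, Tmprss2 (0.9993), a surface protease, and G6pdx (0.9992), which opens the pentose phosphate pathway. Mean levels of Capg were 11.9 CPM in WT, then 56.1 CPM in Smad4 KO and 141.5 CPM with TGF-β, steps close in size to those of Hspa1b. Tmprss2 moved less, from 392.5 to 578.9 and 745.3 CPM.

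Partner genes from lists of the wider chaperone system were counted in the same 3 comparisons, against the same shares of all genes. In Smad4 KO against WT 16.9% of all genes rose and 13.4% fell. The shares were 7.78% and 8.48% with TGF-β against Smad4 KO, and 20.7% and 19.0% with TGF-β against WT. The lists are short, and a count near these shares is not a result about the list. Median log2 fold changes in Smad4 KO against WT, TGF-β against Smad4 KO and TGF-β against WT were 0.04, 0.49 and 0.51 for the other Hsp70 and Hsp110 genes. They were 0.08, 0.06 and 0.02 for J-domain partners, -0.02, -0.10 and -0.20 for exchange factors and -0.07, -0.05 and -0.05 for Hsp90 co-chaperones. TRiC subunits had medians of -0.19, 0.02 and -0.12, mitochondrial chaperones -0.28, -0.18 and -0.45 and chaperones of the endoplasmic reticulum 0.06, -0.13 and 0.00, beside -0.02, -0.01 and -0.02 over all genes.

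Among 7 other cytosolic Hsp70 and Hsp110 genes, 6 were tested. In Smad4 KO against WT 0 rose (edgeR; 0 also at an unadjusted p and in DESeq2) and 1 fell, the ribosome-associated Hspa14 (1.31-fold, adjusted p = 0.0077). Between the Smad4 KO groups 2 rose with TGF-β, the Hsp110 relatives Hspa4l (1.43-fold, 98.9 against 69.0 CPM, adjusted p = 0.0051) and Hspa4 (1.12-fold, adjusted p = 0.044), and 0 fell (also 0 at an unadjusted p and in DESeq2). The call of Hspa4 was lost in 5 of the 6 fits that left out a library, all but that without Smad4 KO replicate 2 (adjusted p up to 0.187). With TGF-β against WT, Hspa4l (1.48-fold), Hspa4 (1.15-fold) and the testis-enriched Hspa2 (2.06-fold) rose, and Hspa14 fell (1.36-fold). Hspa4 was lost there without treated replicate 2 (adjusted p = 0.0508), and Hspa2 was kept only without WT replicate 1 (up to 0.137 otherwise).

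J-domain partners moved in both directions. Of 10 tested, 3 rose and 3 fell in Smad4 KO against WT, among them Dnaja1, the main partner of Hsc70 (1.26-fold higher, 180.2 against 143.1 CPM, edgeR adjusted p = 0.0065), Dnajc7, which bridges Hsp70 and Hsp90 (1.22-fold higher), and the ribosome-bound Dnajc2 (1.26-fold lower). Dnajc7 was lost without WT replicate 2 (adjusted p = 0.0601), and Dnajc2 without WT replicate 2 or Smad4 KO replicate 1 (up to 0.0645). Between the Smad4 KO groups 0 rose and 0 fell in edgeR (2 and 1 at an unadjusted p, 1 and 1 in DESeq2). With TGF-β against WT, Dnaja1 (1.27-fold), Dnajb6 (1.39-fold, adjusted p = 0.0012), Dnaja2 (1.13-fold) and Dnajc5 (1.21-fold) rose and Dnajc2 fell (1.22-fold). Dnaja2 and Dnajc5 were lost without either WT or either treated library (up to 0.0793 and 0.117), and Dnajc2 without WT replicate 2 or either treated library (up to 0.0869). Against the common reference genes, Dnaja1 and Dnajc7 in Smad4 KO stood at 0.19 and 0.14, and Dnajc2 with TGF-β against WT at -0.17.

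Of 7 other exchange factors and regulators of Hsp70, 0 rose in any comparison (edgeR; 0 also at an unadjusted p and in DESeq2). Bag1, an exchange factor that couples Hsp70 to the proteasome, fell from 209.6 ± 0.052 CPM in WT to 149.7 ± 0.98 with TGF-β (1.40-fold, edgeR adjusted p = 0.00037). In Smad4 KO, Bag1 was 1.14-fold below WT (adjusted p = 0.024), a call kept only without Smad4 KO replicate 2 when a library was left out (up to 0.106). It was 1.23-fold lower with TGF-β than in Smad4 KO (adjusted p = 0.0076), lost without treated replicate 1 (0.0536) and -0.16 on the log2 scale, in place of -0.30, against the common reference genes. Bag5 was 1.32-fold lower with TGF-β than in WT (adjusted p = 0.023), lost without either WT library or treated replicate 2 (up to 0.116).

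The Hsp90 co-chaperones that were called were mostly lower. Of 15, 0 rose in Smad4 KO against WT (1 at an unadjusted p and 0 in DESeq2) and 4 fell: the immunophilin Ppid (1.41-fold, 78.3 against 110.4 CPM, edgeR adjusted p = 0.0016), Aarsd1 (1.42-fold), the p23 gene Ptges3 (1.28-fold) and Stip1, the Hop adaptor between Hsp70 and Hsp90 (1.14-fold). Ppid passed in each fit that left out a library. Aarsd1 was lost without WT replicate 2 or either Smad4 KO library (adjusted p up to 0.0632). Ptges3 was lost without WT replicate 2, Smad4 KO replicate 1 or either treated library (up to 0.139), and Stip1 in every such fit but that without Smad4 KO replicate 1 (up to 0.144).

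Of the 15 co-chaperones, 0 rose with TGF-β against Smad4 KO (2 at an unadjusted p, 1 in DESeq2) and 2 fell, the steroid receptor immunophilins Fkbp5 (1.61-fold, edgeR adjusted p = 0.027) and Fkbp4 (1.13-fold, adjusted p = 0.015). Fkbp5 was lost without Smad4 KO replicate 1 or either treated library (up to 0.125), and Fkbp4 without any Smad4 KO or treated library (up to 0.081). Against the common reference genes Fkbp4 stood at -0.04 in this comparison and at -0.12 with TGF-β against WT. Against WT, TGF-β-treated libraries had 2 higher and 6 lower, with Ppid (1.46-fold, adjusted p = 0.00071), Fkbp4 (1.18-fold, adjusted p = 0.0017) and Aarsd1 (1.46-fold, adjusted p = 0.0065) lowest in p.

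TRiC is the ring that folds actin and tubulin, and of its 7 subunits tested 4 fell and 0 rose against WT (edgeR; 0 rose also at an unadjusted p and in DESeq2): Cct2 (1.14-fold, adjusted p = 0.0041), Tcp1 (1.14-fold), Cct5 (1.12-fold) and Cct8 (1.16-fold). Cct2 passed in each fit that left out a library. Tcp1 was lost without WT replicate 1 (adjusted p = 0.0559), Cct5 without WT replicate 1 or either Smad4 KO library (up to 0.11) and Cct8 without WT replicate 1 or Smad4 KO replicate 2 (up to 0.11). TGF-β against Smad4 KO gave 0 higher and 0 lower (2 and 0 at an unadjusted p, 0 and 0 in DESeq2). With TGF-β against WT 3 fell, Tcp1 (1.14-fold), Cct5 (1.10-fold) and Cct2 (1.08-fold), of which Tcp1 was lost without treated replicate 1 (0.0565), Cct5 without WT replicate 1 or either treated library (up to 0.128) and Cct2 without any WT or treated library (up to 0.0984). Against the common reference genes these 3 stood at -0.07, -0.03 and 0.00.

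Prefoldin hands chains to TRiC. Of its 6 genes 1 was lower in Smad4 KO than in WT, Pfdn1 (1.23-fold, edgeR adjusted p = 0.015), near the 13.4% of all genes. With TGF-β against WT 2 were lower, Pfdn1 (1.15-fold) and Pfdn4 (1.32-fold, both edgeR adjusted p = 0.049), beside 19.0% of all genes. In the first comparison Pfdn1 was lost without any of the 4 libraries compared (up to 0.0797), and in the other it was lost in all 6 fits that left out a library (up to 0.175) and Pfdn4 in the 4 fits without a WT or treated library (up to 0.176). Against the common reference genes Pfdn1 stood at -0.08 with TGF-β against WT. Of 7 heat shock factors and regulators of HSF1, 0 rose and 0 fell in any comparison in edgeR. At an unadjusted p the rises and falls were 0 and 1, 0 and 0, and 2 and 1, and in DESeq2 0 and 1, 0 and 0, and 2 and 0, for Smad4 KO against WT, TGF-β against Smad4 KO and TGF-β against WT.

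Of 7 other small heat shock genes only 4 were tested, and Cryab was the one called. The αB-crystallin gene stood at 0.315 ± 0.12 CPM in WT, at 1.15 ± 0.51 CPM in Smad4 KO and at 3.42 ± 1.1 CPM with TGF-β, the same order as Hspb1 and also low. It was 10.7-fold higher with TGF-β than in WT (edgeR adjusted p = 0.0036) and 3.61-fold higher in Smad4 KO than in WT (adjusted p = 0.044), the latter kept only without Smad4 KO replicate 1 when a library was left out (up to 0.176). The call in Smad4 KO against WT was also lost with the deposited values divided by 4 (edgeR adjusted p = 0.0505). The same held with only the groups compared in the fit (adjusted p = 0.106). No floor was set for the fold changes of Cryab. With TGF-β against Smad4 KO 0 rose and 0 fell in edgeR (1 and 0 at an unadjusted p and in DESeq2).

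**Figure D5:**
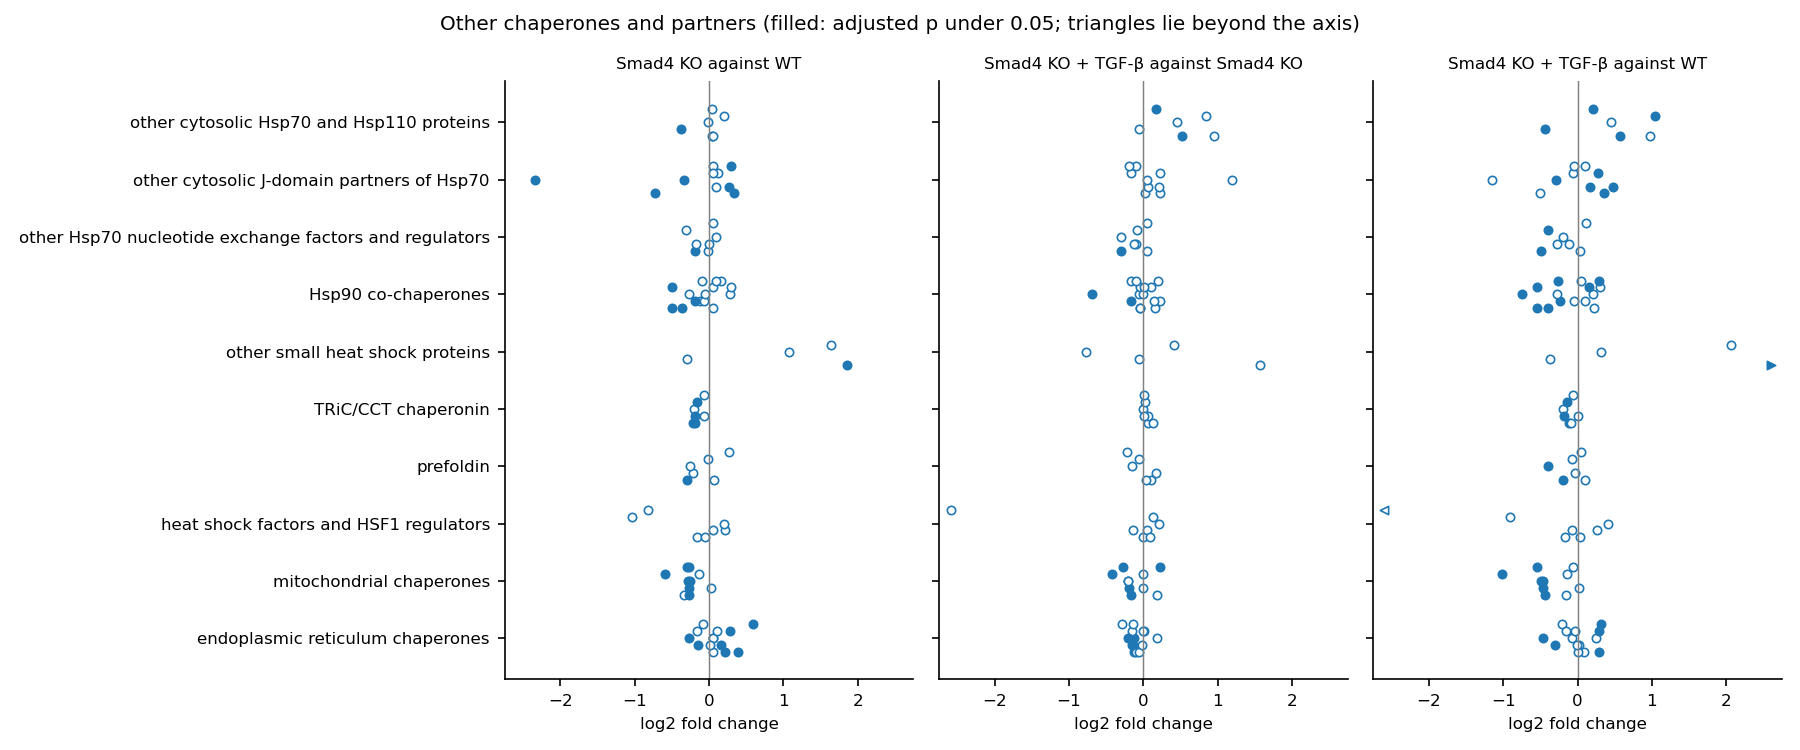
Log2 fold change of every tested gene on 10 lists of other chaperones and partners, 1 panel per comparison. Filled points passed an adjusted p under 0.05, and a triangle lies beyond the axis. Most cytosolic partners stay near 0, and mitochondrial chaperones lie mostly to the left.

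Chaperones of other compartments were counted in the same way. Of 10 mitochondrial chaperones and proteases 7 fell and 0 rose in Smad4 KO against WT (edgeR; 0 rose also at an unadjusted p and in DESeq2). The Hsp60 gene Hspd1 (691.0 ± 2.5 against 836.1 ± 2.3 CPM, 1.21-fold, adjusted p = 0.00063), the mitochondrial Hsp70 gene Hspa9 (1.21-fold) and the protease Lonp1 (1.5-fold) were among them. After TGF-β, Lonp1 (1.34-fold), Trap1 (1.21-fold), Hspd1 (1.14-fold) and Hspa9 (1.12-fold) fell further against Smad4 KO and Grpel2 rose (1.18-fold). Grpel2 was lost in all 6 fits that left out a library (adjusted p up to 0.151) and Trap1 without Smad4 KO replicate 1 or either treated library (up to 0.0919). Measured against the common reference genes, the log2 fold changes of this step were -0.28 for Lonp1, -0.14 for Trap1, -0.06 for Hspd1 and -0.03 for Hspa9.

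In the endoplasmic reticulum 5 of 14 genes rose and 2 fell in Smad4 KO against WT. Smallest in p were the lectin chaperone Calr (1.16-fold), the J protein Dnajc3 (1.31-fold) and Pdia6 (1.20-fold lower). Against Smad4 KO, 0 rose with TGF-β (also 0 at an unadjusted p and in DESeq2) and 5 fell by 1.09-fold to 1.15-fold: Hspa5, Hsp90b1, Calr, Canx and Pdia6. Each of these 5 was lost in at least 3 of the 6 fits that left out a library, always without treated replicate 1 (adjusted p up to 0.155). Measured against the common reference genes, Hspa5, Calr and Canx stood at 0.00, 0.01 and 0.00 there, Hsp90b1 at -0.01 and Pdia6 at -0.07. The rise of Calr in Smad4 KO against WT was 0.07 on that scale and that of Dnajc3 0.24. Of the 10 reference genes, 1 rose and 4 fell with TGF-β against Smad4 KO, so that scale is itself uncertain.

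Other stress genes were measured beside the heat shock genes and counted against the same shares of all genes. Of 12 oxidative and proteotoxic stress genes tested, 6 rose and 2 fell in Smad4 KO against WT. The glutathione synthesis gene Gclc was 2.32-fold (193.8 against 83.4 CPM, edgeR adjusted p = 1.5e-05) and the quinone reductase Nqo1 2.50-fold higher, and Sqstm1, the autophagy adaptor p62, was 1.54-fold higher (adjusted p = 0.00012). With TGF-β against Smad4 KO 3 rose, Gclc (1.32-fold), Hmox1 (1.74-fold) and Gadd45b (1.54-fold), and 0 fell (also 0 at an unadjusted p and in DESeq2). Hmox1 was lost without any Smad4 KO or treated library (adjusted p up to 0.121), and Gadd45b without Smad4 KO replicate 1 or either treated library (up to 0.0825).

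Immediate early genes, which respond to growth factors and to handling, were mixed. Of 15, 3 rose and 4 fell in Smad4 KO against WT, beside 16.9% and 13.4% of all genes. With TGF-β against Smad4 KO 5 rose and 1 fell, beside 7.78% and 8.48%. Ier3 fell 2.34-fold and then rose 2.89-fold, and Egr1 fell 1.78-fold in Smad4 KO, whereas Fos (1.92-fold) and Junb (1.83-fold) rose with TGF-β. Their summed level was 1241.9 and 1289.5 CPM in WT, 1146.4 and 1133.0 in Smad4 KO and 1278.7 and 1265.4 with TGF-β. Jund was also lower, falling from 450.6 to 374.1 CPM between WT and Smad4 KO, and Zfp36 and Klf6 were called higher in Smad4 KO. The part of these stress genes in the heat shock results was not tested.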

How the data were processed

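RNA-seq libraries from total RNA of 6 organoid samples were sequenced by the authors. The submitters' processing notes name FastQC 0.11.9, HISAT2 2.1.0, SAMtools 1.9, StringTie 1.3.3b and the mouse build GRCm38, with no role or order. Not given in the sources used here are the annotation release, the strand setting and how reads shared by copies were counted. The deposited values were used as estimated counts, whole numbers per gene that were not normalized. Of values from 1 to 24, 42.3% were multiples of 4, so a fragment was taken to add about 4 units where a floor was needed. Most of these values were not multiples of 4, so this is an approximation.

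Genes were tested with edgeR 4.0.16 (quasi-likelihood, TMM scaling) over all 6 libraries with group as the term, leaving 3 residual degrees of freedom. The default filter on low counts left 15503 of 31227 genes. A call is a Benjamini-Hochberg adjusted p under 0.05 over all genes tested, and each error of a log2 fold change was derived from its F statistic. CPM used TMM-scaled totals, and TPM used merged exon lengths. DESeq2 1.42.0, other scalings and filters, a replicate block and leaving out each library were alternatives. Members and gene lists were chosen with earlier results of these data known. All members were named, and from each list up to 3 called genes with the smallest p at 5 CPM or more, or every called gene where 5 or fewer were called, of which some are left out here. Replicates were distinct libraries (log2 CPM correlation 0.9705 to 0.9757).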

Additional observations from a re-analysis of the deposited data

How the results depend on the processing

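The number of members that rose was 5, 4 and 6 for Smad4 KO against WT, TGF-β against Smad4 KO and TGF-β against WT under each alternative run, except 5 in DESeq2 for TGF-β against Smad4 KO. Without treated replicate 1 that count of 4 held Hspa8 in place of Hspa1a. Members that fell in Smad4 KO against WT numbered 2 with upper quartile scaling and without the filter on low counts, and 0 to 2 when 1 library was left out. Those that fell with TGF-β against WT numbered 1 to 2. With 1 library left out, genes lower in Smad4 KO than in WT numbered 1166 to 1867 (2084 with all libraries), and with TGF-β against Smad4 KO 656 to 1108 were higher (1206) and 848 to 1196 lower (1315). A lone remaining library was assumed to vary like the other groups. Replicate numbers did not pair the samples (correlation of replicate differences 0.001, 0.014 and 0.012), and the replicate block gave 2 members lower in Smad4 KO against WT, with Hsp90aa1 added (-0.37 ± 0.07 SE, edgeR adjusted p = 0.0143), and 2385 genes higher and 1799 lower there. Directions reversed in members that were not called. Hsph1 in Smad4 KO against WT was 0.00 with upper quartile scaling. With 1 library left out, Hsf1 ran from -0.24 to 0.17 in that comparison, from -0.12 to 0.30 with TGF-β against Smad4 KO and from -0.17 to 0.27 with TGF-β against WT, where upper quartile scaling gave -0.02. Likewise, with TGF-β against Smad4 KO, Hsp90ab1 ran from -0.04 to 0.02 and Dnajb1 from -0.10 to 0.16. The cause was not tested. The median of 10 common reference genes itself lay at 0.15, -0.14 and -0.12 in the 3 comparisons. These medians do not add up across the comparisons. Of the reference genes, 3 rose and 2 fell, 1 rose and 4 fell, and 2 rose and 4 fell, so the scale is uncertain. Against that median Hspa5, Calr and Canx stood at 0.00, 0.01 and 0.00 with TGF-β against Smad4 KO. Members that were not called also reversed on this scale. These were Hsph1 (-0.08) and Dnajb1 (-0.01) in Smad4 KO against WT, and Hsp90ab1 (0.12) with TGF-β against Smad4 KO. Over the 3 comparisons Hspa1b stood at 2.07, 1.46 and 3.65, and Bag3 at 0.57, 0.74 and 1.43. Few counts limit Hspb1 and Cryab.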
